A study of Homo sapiens with 6 samples.

Results

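The MHC class I pathway was followed through 9 genes: the heavy chains HLA-B, HLA-C, HLA-E and HLA-F, the light chain B2M, the peptide loading genes TAP1, TAP2 and TAPBP, and NLRC5, a transcriptional activator of class I genes. The genes were chosen for their known roles, with earlier results of these data known. Every probe set whose platform gene symbols include any of the 9 genes was counted. This gave 45 probe sets of the 49293 tested, and 9 genes of the 18239 tested. Of these probe sets, 43 named a single gene, 1 named HLA-B and HLA-C together and 1 named HLA-DOB and TAP2 together.

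Class I molecules display short peptides from inside the cell to T cells and natural killer cells. A heavy chain is held in the endoplasmic reticulum together with the light chain B2M. The proteasome cuts the peptides, the TAP1 and TAP2 transporter pumps them into the endoplasmic reticulum, and tapasin, the product of TAPBP, bridges the transporter to the waiting heavy chain. HLA-B and HLA-C are classical heavy chains, which present varied peptides. HLA-E mostly presents leader peptides of other class I chains to natural killer cell receptors, and HLA-F is a nonclassical chain that can also reach the surface without peptide. NLRC5 is recruited to a set of promoter elements called the X and Y boxes, and interferon gamma is a well-known inducer of the whole pathway.

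The cells were MV4;11, an established human leukemia line with a rearrangement of the MLL gene, so the results describe a single line in culture. The control group was MV4;11 given the solvent DMSO, and the treated group was MV4;11 given 4 µM MI-389, which the labels describe as blocking the binding of menin to MLL. Both lasted 6 days with 0.25% DMSO, and on day 3 the medium was replaced, the cell density was brought back and the compound was added again. Each group had 3 Affymetrix arrays, whose labelling starts at the ends of transcripts. Nothing in the labels beyond the term biological replicates says that the arrays come from separate cultures, and p-values therefore measure only the spread between these 6 arrays, part of which may be technical.

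Across probe sets, which are not independent, correlations between arrays were 0.997 to 0.998 within the groups and 0.979 to 0.981 between them. Among 7 measured markers of the line and of myelomonocytic cells, 3 rose and 3 fell with MI-389, against 18.4% and 15.7% of all genes. FLT3 went from a log2 mean of 11.0 to 9.59 and MEIS1 from 8.18 to 4.47, while CSF1R went from 6.19 to 7.85, ITGAX from 6.37 to 7.02 and PTPRC, the leukocyte antigen CD45, from 8.89 to 9.23. CD4 read 6.62 and 6.56 and was not called, and SPI1 (4.66 and 3.99), the third that fell, had both means below the nonspecific level. That level is 5.49, the highest value on any array among the nonspecific control probe sets other than the one richest in GC. Of 22 measured markers of T cells, B cells, NK cells, erythroid cells and fibroblasts, 21 had both group means at or below it, and the exception was PAX5 (6.66 and 6.75). Of these 22, CD3D was higher by 0.32, and CD79A (-0.27) and COL1A1 (-0.31) were lower. The 9 probe sets of the hybridisation spike-ins, RNA added in equal amounts to each array, read 0.25 higher on the MI-389 arrays on the log2 scale. The part of this offset in the results was not tested, and values recentred on the spike-ins are given below for each of the 9 genes. In bulk RNA, fewer cells of a type and less RNA per cell cannot be told apart.

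The promoters of 4 genes are shown so that the elements class I genes are known for can be compared between classical chains, a nonclassical chain and the light chain. Each stretch holds the 160 bases from 200 to 41 bases before the annotated start, from RefSeq on GRCh38.p14, written along the gene. Capitals mark matches, on either strand, to GAAANNGAA (an interferon response element), its mirrored form GAANNGAAA, ATTGG (the Y box core), TGACG (the X2 box core) and GGNNNTTCC (a kappa B site). The stretches lie at chr6:31357220-31357379 on the minus strand (HLA-B), chr6:31272133-31272292 on the minus strand (HLA-C), chr6:29723234-29723393 on the plus strand (HLA-F) and chr15:44711317-44711476 on the plus strand (B2M).
HLA-B: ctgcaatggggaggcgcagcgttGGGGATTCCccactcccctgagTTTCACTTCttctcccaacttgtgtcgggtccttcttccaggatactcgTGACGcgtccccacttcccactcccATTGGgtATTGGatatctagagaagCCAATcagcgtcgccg
HLA-C: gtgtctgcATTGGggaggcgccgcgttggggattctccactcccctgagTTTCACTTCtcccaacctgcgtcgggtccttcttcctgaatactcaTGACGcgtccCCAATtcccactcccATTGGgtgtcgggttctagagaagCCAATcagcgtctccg
HLA-F: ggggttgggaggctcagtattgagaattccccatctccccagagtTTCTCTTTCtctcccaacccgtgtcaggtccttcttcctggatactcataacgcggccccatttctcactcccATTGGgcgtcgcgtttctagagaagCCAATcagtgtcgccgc
B2M: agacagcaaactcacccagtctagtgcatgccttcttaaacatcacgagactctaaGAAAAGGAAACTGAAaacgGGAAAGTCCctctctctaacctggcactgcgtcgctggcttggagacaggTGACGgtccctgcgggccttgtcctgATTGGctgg

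The table of promoters used here gave windows for 7 of the 9 genes, 8 windows in all because TAP1 has 2 annotated starts. Each window ran from 250 bases before to 50 bases after the start. Windows for HLA-E and NLRC5 were not analysed here. GAAANNGAA was found in the windows of HLA-F, B2M, TAP1, TAP2 and TAPBP, and in 8.11% of all 35116 windows of the table. The mirrored form, added after the windows were seen, was found in HLA-B, HLA-C and TAP2, and in 7.66% of all windows. Its matches partly overlap those of GAAANNGAA in TAP2.

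The Y box core ATTGG was found in HLA-B, HLA-C, HLA-F, B2M and the second TAP1 window, and in 34.6% of all windows. The X2 core TGACG was found in HLA-B, HLA-C, B2M and TAP2, and in 24.6% of all windows. In HLA-B, its first base lay 106 bases before the start and in HLA-C, 105, and HLA-F had no match to these letters. The kappa B letters matched in HLA-B, B2M, TAP1 and TAPBP (20.1% of windows), and TTCNNNGAA, the interferon gamma activated site, in the first TAP1 window only among the 8 (7.66% of windows). The aligned windows of HLA-B and HLA-C were 88.5% identical, those of HLA-B and HLA-F 79.2%, those of HLA-C and HLA-F 78.5%, and B2M shared 47.0% to 48.9% with each. A match is a description of the letters and says nothing of use by a factor in these cells.

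**Figure D1:**
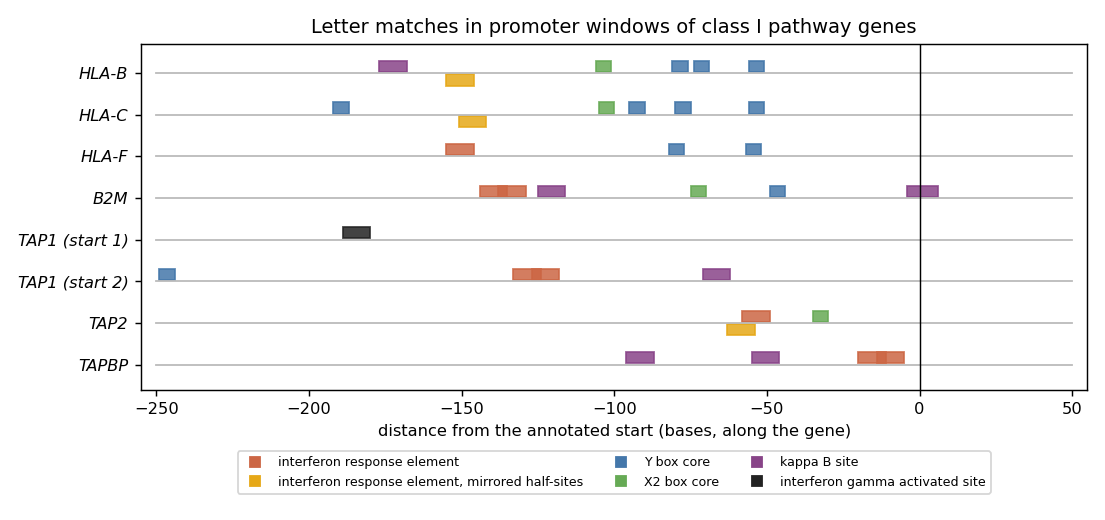
Positions of motif matches on either strand in 8 promoter windows of 7 genes, against the distance in bases from the annotated start, with a colour for each motif. The interferon element of HLA-B, HLA-C and HLA-F, the mirrored form in the first pair, starts 155, 151 and 155 bases before the start. Y box matches of these 3 genes lie 82 to 74 and 57 to 56 bases before it, and HLA-C has 2 more, at 192 and 95 bases.

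Of the 9 genes, 8 rose with MI-389, against 18.4% of all genes (limma, Benjamini-Hochberg over all genes). The remaining gene, HLA-E, fell, against 15.7% of all genes. All 9 had both means above the nonspecific level, while 9571 of the 18239 genes had a mean below it. A filter on expression left out dim genes and kept 10943. Of these, 29.4% rose and 26.0% fell, and 8 of the 9 genes again rose and 1 fell. Among the 8668 genes with probe sets above the nonspecific level, taken as their mean, the shares were 33.5% and 32.6%. In all 9 the values of the groups did not overlap, 8 higher and 1 lower, against 24.9% and 20.5% of all genes. The median change was 0.43 on the log2 scale, beside 0.018 for all genes. HLA-F changed most, 3.65-fold, followed by NLRC5 (1.97-fold), HLA-C (1.68-fold) and HLA-B (1.41-fold). TAP2 (1.35-fold), TAP1 (1.34-fold), B2M (1.29-fold) and TAPBP (1.25-fold) rose less, and HLA-E was 1.17-fold lower. These folds are each gene's own change between groups, from the probe set with the highest mean among those naming it alone.

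Centring the arrays on the spike-ins lowered the median of all genes from 0.018 to -0.23 and the share of called genes that were higher from 53.9% to 11.2%. Of all genes, 7.66% were then called higher and 60.6% lower. Under this centring HLA-B (0.24), HLA-C (0.50), HLA-F (1.61) and NLRC5 (0.73) remained called higher and HLA-E (-0.48) lower. B2M (0.11), TAP1 (0.17), TAP2 (0.18) and TAPBP (0.07) were then no longer called. Of the 45 probe sets, 13 were then called higher and 8 lower, among them 2 TAPBP probe sets at -0.26 and -0.33. The shares of all probe sets under this centring are not given here, and the share of all genes called lower was 60.6%.

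Among the 45 probe sets, 26 rose and 6 fell, against 14.0% and 14.0% of all probe sets, and 13 did not pass the test. Both group means lay above 5.49 in 32 probe sets, of which 23 rose, 6 fell and 3 did not pass. Of the 13 others, 3 were called, all higher. The share called among all probe sets above 5.49 is not given here. Among the 8668 genes with probe sets above this level, taken as their mean, 33.5% rose and 32.6% fell. The groups did not overlap in 31 probe sets that were higher with MI-389 and in 6 that were lower, against 21.3% and 19.1% of all probe sets, and they overlapped in 8.

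**Figure D2:**
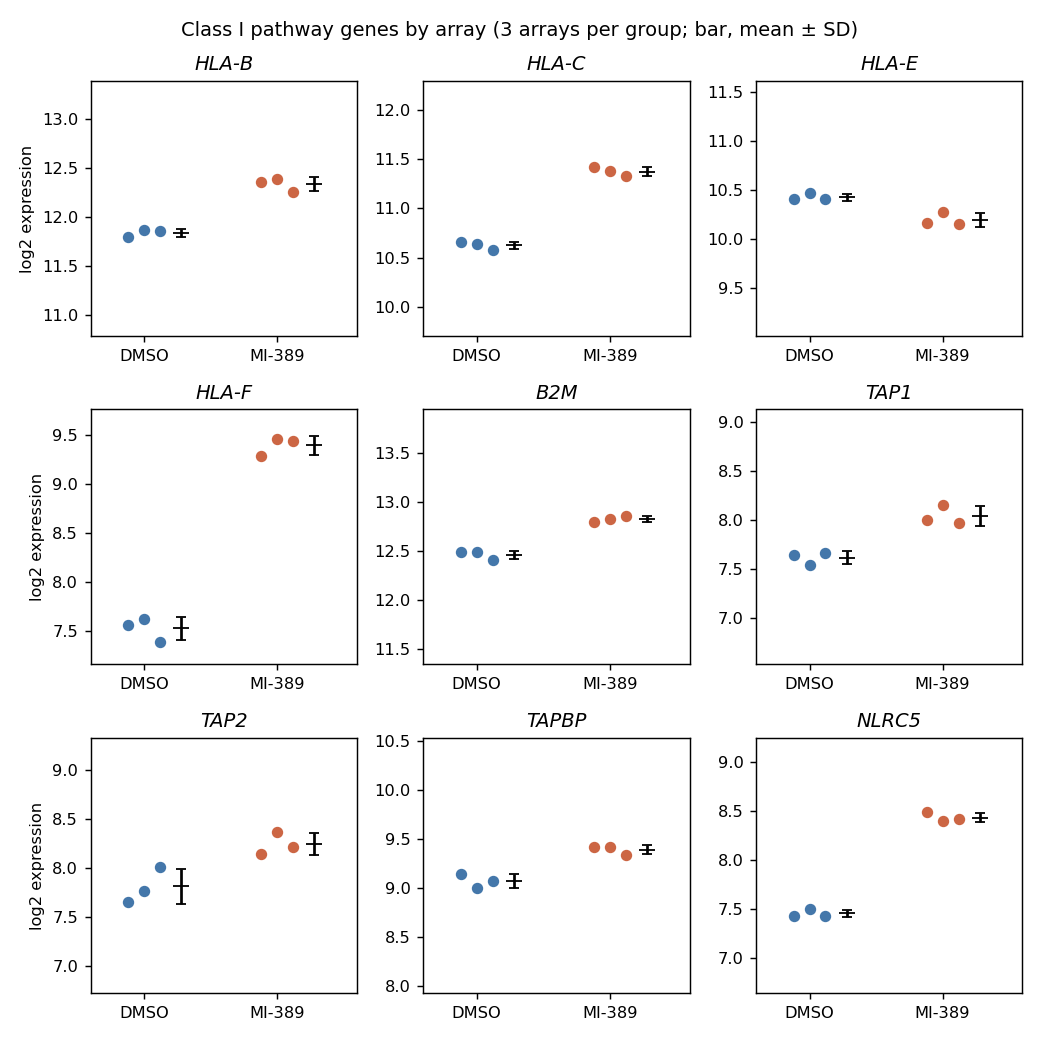
Log2 expression of the 9 genes on each array, DMSO in blue and MI-389 in orange, with the mean and SD of each group (n = 3) as a bar beside the points. Every panel spans the same log2 width, and the groups are apart in all 9, with HLA-E the only gene lower with MI-389 and HLA-F showing the widest gap.

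HLA-B, a classical heavy chain, gave log2 values of 11.80, 11.87 and 11.86 with DMSO and 12.36, 12.39 and 12.26 with MI-389. All 3 treated arrays were above all 3 controls. The change was 0.50 (SE 0.06, 95% interval 0.37 to 0.63; limma adjusted p = 8.88e-05). A second HLA-B probe set rose by 0.48. The remaining one, the only one without a suffix for shared sequence, changed by 0.09 with both means below the nonspecific level (3.95 and 4.04) and did not pass the test.

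HLA-C, the other classical chain here, gave 10.66, 10.63 and 10.58 with DMSO and 11.42, 11.38 and 11.33 with MI-389. The groups were apart by more than their spread, with a change of 0.75 (SE 0.06, 95% interval 0.63 to 0.87; limma adjusted p = 3.03e-06). A second HLA-C probe set rose by 0.51, and the last, with both means below the nonspecific level (4.46 and 4.60), changed by 0.14 and was not called. The probe set shared by HLA-B and HLA-C rose by 0.58, from a mean of 4.94, below the nonspecific level, to 5.53. All 3 HLA-C probe sets carry the suffix _x_at, which marks probes that may also bind other transcripts. Heavy chain genes are close copies and vary between people, so the split of signal among them is uncertain.

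HLA-E, the ligand of natural killer receptors, was the exception. It gave 10.41, 10.46 and 10.40 with DMSO and 10.16, 10.28 and 10.15 with MI-389. Every treated array was below every control, and the change was -0.23 (SE 0.06, 95% interval -0.36 to -0.10; limma adjusted p = 0.0110). All 6 HLA-E probe sets fell, with changes from -0.49 to -0.23 and a median of -0.35, and in all 6 the groups did not overlap. The probe set used per gene showed the smallest of these changes. Without DMSO replicate 2 its change was -0.21, and the adjusted p was 0.0520. In the fit over all probe sets the call was also lost without MI-389 replicate 1 (limma adjusted p = 0.0530). Of the 6, 4 have the suffix _x_at and 2 have _s_at, both for sequence that other transcripts can share.

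HLA-F, the nonclassical chain, gave 7.56, 7.62 and 7.39 with DMSO and 9.28, 9.46 and 9.43 with MI-389. The lowest treated array was far above the highest control. The change of 1.87 (SE 0.08, 95% interval 1.70 to 2.04; limma adjusted p = 4.49e-08) ranked 123 among all genes by size of rise. HLA-F had 10 probe sets. The 4 with both means above the nonspecific level all rose, by 1.11 to 1.87. The other 6 did not reach that level in both groups, and 1 of these rose, by 0.22, a call lost without DMSO replicate 1, DMSO replicate 2 or MI-389 replicate 1. Another, at 0.21, was called without DMSO replicate 3 (0.33). The probe set without a suffix is among the dim ones, with a change of 0.22 (limma adjusted p = 0.0753 over all probe sets).

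B2M, the light chain shared by all class I molecules, gave 12.49, 12.48 and 12.41 with DMSO and 12.79, 12.83 and 12.85 with MI-389. The groups did not overlap, and the change was 0.36 (SE 0.05, 95% interval 0.24 to 0.49; limma adjusted p = 4.48e-04). All 8 B2M probe sets rose, by 0.29 to 0.48, and the largest of these changes came from the only one without a suffix.

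To ask whether the heavy chains changed by the same amount as their light chain, the log2 difference from B2M was formed within each array, for 4 heavy chains, and TAP1 was set against TAP2 in the same way. The 5 comparisons used an exact two-sided permutation test, which with 3 against 3 arrays cannot go below p = 0.1 and so cannot pass the threshold of 0.05. The change of HLA-C was 0.39 larger than that of B2M (SE 0.05), and that of HLA-F 1.502 larger (SE 0.06). HLA-E differed from B2M by -0.59 (SE 0.05). In these 3 comparisons the groups did not overlap and the exact p was 0.1, the smallest possible (0.167 after adjustment over the 5). HLA-B minus B2M differed by 0.13 (SE 0.07, exact permutation p = 0.2, adjusted 0.25), with overlapping groups. With the mean of all probe sets of each gene, these differences were 0.09 for HLA-C, 0.36 for HLA-F, -0.74 for HLA-E and -0.03 for HLA-B.

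**Figure D3:**
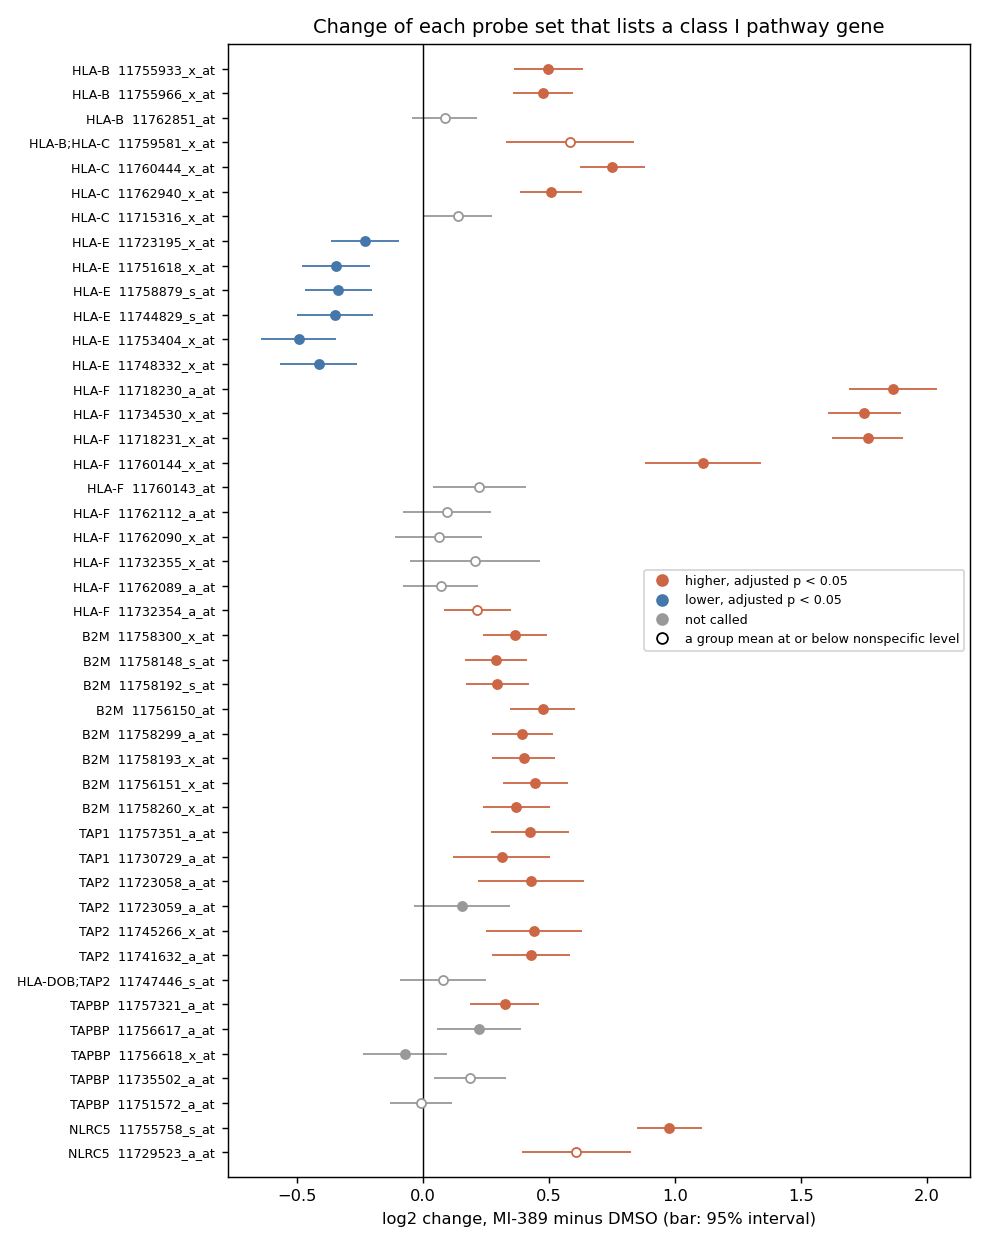
Log2 change, MI-389 minus DMSO, of each of the 45 probe sets with its 95% interval, grouped by gene, orange for higher, blue for lower and grey for not called. Open circles mark a group mean at or below the nonspecific level of 5.49. All 6 HLA-E probe sets lie left of 0, all 8 B2M probe sets lie right of it, and the HLA-F probe sets split between 4 above 1.1 and 6 dim ones at 0.22 or less.

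TAP1, a subunit of the peptide transporter, gave 7.64, 7.54 and 7.66 with DMSO and 7.998, 8.16 and 7.97 with MI-389. The treated arrays were all above the controls, with a change of 0.43 (SE 0.07, 95% interval 0.28 to 0.57; limma adjusted p = 6.40e-04). The second TAP1 probe set rose by 0.31 and lost its call without DMSO replicate 1, DMSO replicate 2 or MI-389 replicate 2 (limma adjusted p = 0.0514, 0.0853 and 0.0621).

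TAP2, the partner of TAP1, gave 7.66, 7.77 and 8.01 with DMSO and 8.15, 8.37 and 8.21 with MI-389. The third control array stood close to the lowest treated array, but the groups did not overlap. The change was 0.43 (SE 0.09, 95% interval 0.22 to 0.64; limma adjusted p = 0.00483). Of 4 TAP2 probe sets, 3 rose by 0.43 to 0.44. The fourth changed by 0.15 (adjusted p = 0.234, and 0.24 with adjusted p = 0.0366 without MI-389 replicate 3). The dim probe set shared with HLA-DOB changed by 0.08 and was not called. The change of TAP1 minus that of TAP2 was -0.0043 (SE 0.10, exact permutation p = 0.9), smaller than its standard error.

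TAPBP, which encodes tapasin, gave 9.14, 9.001 and 9.07 with DMSO and 9.43, 9.42 and 9.34 with MI-389. The groups did not overlap and the change was 0.32 (SE 0.06, 95% interval 0.19 to 0.46; limma adjusted p = 0.00174). It was the least uniform of the loading genes, since only 1 of its 5 probe sets rose. The others changed by 0.22 (adjusted p = 0.0517), 0.19, -0.07 and -0.0087. The first of these was called without DMSO replicate 3 or MI-389 replicate 3, and the next without MI-389 replicate 2. The mean of all 5 probe sets changed by 0.13 (adjusted p = 0.0404).

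NLRC5, the activator of class I genes, gave 7.43, 7.497 and 7.43 with DMSO and 8.48, 8.39 and 8.41 with MI-389. The spread within each group was small beside the change of 0.98 (SE 0.06, 95% interval 0.85 to 1.10; limma adjusted p = 4.70e-07). Its second probe set rose by 0.61, with values of 4.66, 4.52 and 4.35 against 4.99, 5.06 and 5.29, all below the nonspecific level.

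Other genes of the pathway were taken from 7 lists composed by function, of which 86 of 92 genes were measured. Of these, 30 rose and 22 fell, against 18.4% and 15.7% of all genes. With dim genes left out, 67 remained, of which 30 rose and 19 fell, beside 29.4% and 26.0% of all genes kept. After spike-in centring 20 of the 86 were higher and 47 lower, beside 7.66% and 60.6% of all genes under that centring. In the list of peptide supply, the subunits of the immunoproteasome and the proteasome activators, 2 of 7 (28.6%) rose and 5 (71.4%) fell. Their median change was -0.26, and all 7 had both means above the nonspecific level. PSMB9, a catalytic subunit of the immunoproteasome, rose by 0.45. PSMB8, another such subunit, rose by 0.17 (adjusted p = 0.038) and was not called in the limma fit over all probe sets, nor were its other probe sets. That call was lost when any array other than MI-389 replicate 3 was left out, and the change was -0.08 after spike-in centring. The activator subunits PSME1 (-0.38), PSME2 (-0.30), PSME3 (-0.38) and PSME4 (-0.21) and the assembly factor POMP (-0.26) fell.

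Among 12 helpers of peptide trimming and loading, 5 (41.7%) rose and 6 (50%) fell, with a median of -0.16. The shares of all genes were 18.4% and 15.7%, and 29.4% and 26.0% with dim genes left out. Both means lay above the nonspecific level in 11 of the 12. CALR, a chaperone of the loading complex, rose by 0.79, at least 1.59-fold when measured from the nonspecific level. Its DMSO mean of 5.36 lay below that level, and 1 of its 2 probe sets was called higher. ERAP2, which trims peptides in the endoplasmic reticulum, rose by 0.46, and PDIA3, a partner of tapasin, by 0.31. Of their probe sets, 1 of 3 was called higher for ERAP2 and 1 of 2 for PDIA3. The largest falls were those of PRKCSH (-0.91), ERAP1 (-0.59) and BCAP31 (-0.48). ERAP1, the relative of ERAP2, had 3 of 5 probe sets higher and 1 lower, and the mean of its probe sets changed by 0.14. The mean of the probe sets of PDIA3 changed by 0.06 and was not called. CANX, the chaperone of new heavy chains, fell by 0.29, with all 9 of its probe sets lower. It was chosen for mention after its values were seen.

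Among 19 transcriptional regulators of class I genes, 4 (21.1%) rose, beside 18.4% of all genes. A further 7 (36.8%) fell, beside 15.7%, and the median was -0.12. Both means lay above the nonspecific level in 18 of these regulators. With dim genes left out, 29.4% of the genes kept rose and 26.0% fell. IRF8 (0.63), a myeloid interferon regulatory factor, MTF2 (0.53), a partner of Polycomb repressive complexes, and CREB1 (0.53), which binds X2 elements, rose. IRF9 (-0.81), IRF1 (-0.62), which binds interferon elements, and RFXANK (-0.70), a subunit of the X box factor RFX, fell. Of the list of interferon receptors and their signalling, 9 genes were measured, with a median of 0.11, including IFNAR1, IFNAR2 and TYK2 of the type I receptor. JAK2 (0.67), IFNGR1 (0.55), TYK2 (0.36) and JAK1 (0.34) rose and IFNGR2 (-0.49) and SOCS1 (-0.99, both means below the nonspecific level) fell. After spike-in centring ERAP2 (0.21), PDIA3 (0.06), JAK1 (0.09) and TYK2 (0.10) were not called.

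Of 18 class I-like molecules and NKG2D ligands, 4 (22.2%) rose and 1 (5.56%) fell, against 18.4% and 15.7% of all genes, 13 did not pass, and 13 had both means below the nonspecific level. FCGRT, the neonatal Fc receptor that also pairs with B2M, rose by 2.78, from 7.54 to 10.32, and 5 of its 7 probe sets rose. PROCR, the protein C receptor, rose by 1.39, at least 2.44-fold, and CD1D, which presents lipids, by 0.81. Of the 2 CD1D probe sets, 1 was called higher. ULBP2 fell by 0.44 with both means below the nonspecific level. Of 10 measured genes listed as receptors of class I molecules, LILRB2 (1.42, at least 1.81-fold), LILRB1 (0.66) and LILRA1 (0.56, at least 1.24-fold) rose, and 7 had both means below the nonspecific level.

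For comparison, 8 of 11 class II chains and their loading genes rose and 1, HLA-DOB, fell by 0.23, with a median change of 1.91. These shares are 72.7% and 9.09%, beside 18.4% and 15.7% of all genes. Both means of HLA-DOB were below the nonspecific level, and its call was lost without DMSO replicate 1, DMSO replicate 3 or MI-389 replicate 1 (limma adjusted p = 0.0577, 0.0807 and 0.0732). HLA-DPA1 (3.42), HLA-DRA (3.34), HLA-DRB1 (2.98) and HLA-DQB1 (2.78) had larger log2 changes than HLA-F (1.87), and CD74, the invariant chain, rose by 1.61. HLA-DPB1 rose by only 0.44. HLA-DQA1 (-0.0024) and HLA-DOA (-0.10), each with both means below the nonspecific level, were not called. HLA-DMA (3.43) and HLA-DMB (1.91) started below the nonspecific level and were at least 8.33-fold and 2.24-fold higher. These differences between genes in size of change were not tested. Where probe sets without a suffix were used first, the changes of HLA-B (0.09), HLA-F (0.22), PSMB9 (0.13), CD1D (0.02), HLA-DQB1 (0.11) and HLA-DRA (0.03) were not called, PDIA3 changed by -0.19, and FCGRT rose by 0.44. The HLA-B (3.95 and 4.04) and HLA-F (4.82 and 5.04) probe sets used there had both means below the nonspecific level. Levels of the other probe sets used there are not given here. This rule also passes over the suffix _a_at, which the brightest HLA-F probe set carries.

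**Figure D4:**
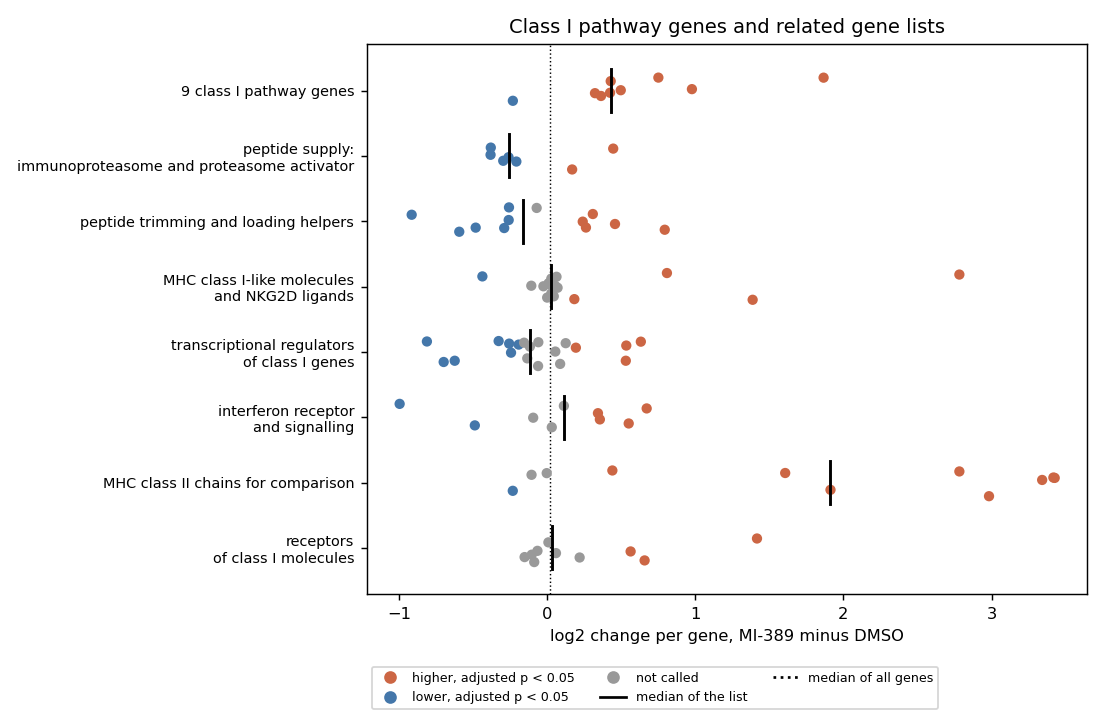
Log2 change per gene, MI-389 minus DMSO, of the 9 class I pathway genes and of 7 lists, 1 point per gene, with the median of each list as a bar and the median of all genes, 0.018, as a dotted line. The class I genes have a median of 0.43, the peptide supply list lies mostly left of 0 (median -0.26) and the class II list reaches 3.43.

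On chromosome 6, 7 of the 9 genes lie between HLA-F and TAPBP in the order of the RefSeq gene table. Among the 128 other measured genes of this stretch, 28 (21.9%) rose and 23 (18.0%) fell, beside 18.4% and 15.7% of all genes, and their median change was -0.0036. TAP1 lies between PSMB8 and PSMB9, and TAP2 between PSMB8 and HLA-DOB.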

How the data were processed

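Total RNA of MV4;11 cells was measured on 6 Affymetrix arrays, 3 per group, and the values deposited by the authors are log2 expression values, 1 per probe set and array. The submitters' processing notes name RMA (background correction, normalisation and summary of probes) and limma. No version is stated, and other settings were not given in the sources used here. RMA compresses low values, which understates folds of dim genes. The number of arrays limits the precision.

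From these values, the 2 groups were compared in limma 3.58.1 under R 4.3.3, with lmFit and then eBayes, two-sided and without covariates, after removing 93 control probe sets. P-values were adjusted by Benjamini-Hochberg over all 49293 probe sets or 18239 genes, with a threshold of 0.05. Changes are MI-389 minus DMSO on the log2 scale. Probe sets were named from the platform annotation, and symbols were updated through the RefSeq gene table of GRCh38.p14, in which the gene IDs of 45172 of the 45253 probe sets naming a single gene were found. A gene stands for its probe set with the highest mean over all arrays. The gene fit was tested on simulated data. "At least" folds compare the brighter group with the nonspecific level of 5.49. Promoter windows were aligned with Biopython 1.88.

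The members, the lists and the rule for named genes were chosen with earlier results of these data known. Named are all 9 genes, every called gene up to the 3 largest rises and falls of each list, and any gene of lists with 11 or fewer genes. Alternatives were other centrings, a filter at the 40th percentile of expression, a replicate block, trend and array weights, left-out arrays, other probe set rules, treat in limma with a fold of 1.2, and a stricter threshold (0.01). The same replicate number did not go with shared deviations (correlations of -0.18, 0.03 and -0.11 for replicates 1, 2 and 3), so the numbers were not taken as pairs.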

Additional observations from a re-analysis of the deposited data

How the results depend on the processing

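Direction and call of most results held under the alternatives. For the 9 genes, 158 gene and alternative combinations kept direction and side of the threshold and 13 lost the call. The expression filter, replicate block, trend, treat and threshold of 0.01 leave the log2 changes as they are, so direction could not turn there. For the 45 probe sets, 613 kept their side of the threshold, 43 lost the call, 10 gained it and 1 called value reversed. The sign of values not called also turned in 15 of these combinations, 11 of them under spike-in centring. For the list genes named, 503 kept direction and call, 22 lost the call and 5 reversed. Centring on the spike-ins gave 5 called genes of the 9 (4 higher), 21 called probe sets of the 45 (13 higher) and 67 called list genes (20 higher, 47 lower). Of all genes, 7.66% were then called higher and 60.6% lower. In treat, which asks for a change beyond 1.2-fold, 4 genes were called (4 higher, 0 lower: HLA-B, HLA-C, HLA-F and NLRC5 higher) and 13 probe sets (12 higher, 1 lower). In treat 7.03% of all genes were called higher and 6.44% lower. A threshold of 0.01 left 8 genes called higher and 0 lower, with HLA-E at a limma adjusted p of 0.0110 (unadjusted p below 0.05 for 1 gene lower). At that threshold 13.6% of all genes were called higher and 12.0% lower. Leaving out each array in turn gave 8 to 9 called genes, 0 to 1 of them lower, 29 to 34 called probe sets and 45 to 53 called list genes. The shares of all genes were then 15.3% to 18.2% higher and 13.3% to 15.5% lower. With the replicate block 9 genes (8 higher, 1 lower), 31 probe sets (25 higher, 6 lower, without a dim HLA-F probe set at adjusted p = 0.0502) and 49 list genes (28 higher, 21 lower) were called. The block called 16.7% of all genes higher and 14.7% lower.

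With the mean of all probe sets, the change relative to B2M was 0.087 for HLA-C, -0.74 for HLA-E, 0.36 for HLA-F and -0.026 for HLA-B, where the sign turned. With the mean of probe sets above the nonspecific level, an alternative added after seeing the data, it was 0.25, -0.74 and 1.24 for HLA-C, HLA-E and HLA-F, and 0.11 for HLA-B. Signs of single called items also turned for a dim HLA-F probe set (-0.037, spike-in centring), PSMB8 (-0.083 under spike-in centring and -0.060 with plain probe sets first), PDIA3 (-0.19) and ULBP2 (0.015), both with plain probe sets first, and ERAP1 (0.14, mean of probe sets). The mirrored interferon element was also added after seeing the windows. The cause of these changes was not tested, except that treat and the threshold of 0.01 are stricter by construction. Dim probe sets limit the direction of values near 5.49.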
